A study of Mus musculus with 12 samples.

Results

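The cells described here were liver barcodes in which RNA of both Kit and Cd34 was captured, while marker RNA of the more mature blood and vessel lineages was absent or low. They were selected on measured values. A barcode had to hold at least 1000 UMIs (unique molecular identifiers, each standing for 1 captured RNA molecule), of which at most 15% came from mitochondrial genes. It also had to hold at least 1 UMI of Kit and at least 1 of Cd34, fewer than 10 UMIs of Elane, Mpo and Prtn3 together, and 0 UMIs of Klf1, Pf4, Stab2, Kdr and Mcpt8. This gate took 335 of 184493 passing barcodes, 158 of 113376 in embryos at E16.5 (the day counted from the vaginal plug) and 177 of 71117 in pups on postnatal day 3 (P3).

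The fetal liver is the main site of blood formation before the bone marrow takes over, and it holds haematopoietic stem cells together with the progenitors that leave them. Kit is the receptor for stem cell factor and Cd34 is a sialomucin of the cell surface, and both are carried by stem cells and by many of their early progeny. Commitment is marked by the loss of stem cell transcription factors such as Hlf and Meis1 and by the gain of lineage genes, such as Irf8 on the way to monocytes and dendritic cells or Ebf1 on the way to B cells.

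Whole livers came from crosses between mice heterozygous for Nodder (Ndr), a missense allele of Jag1, which encodes a ligand of Notch receptors. The allele was germline and thus present in every cell of the liver, and the labels named Jag1+/+, Jag1Ndr/+ and Jag1Ndr/Ndr animals, 2 individuals of each genotype and stage. Pups with the Jag1Ndr/Ndr label at P3 had been recognised by jaundice. Livers were dissociated, with TrypLE in the digestion at E16.5 only, dead cells were removed magnetically and no blood lineage was sorted.

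The 12 deposited matrices held fewer libraries than matrices. At E16.5, replicate 2 of Jag1+/+ and replicate 2 of Jag1Ndr/+ contained the same values throughout, and their data enter once, under the name shared library. With Jag1+/+ replicate 1, Jag1Ndr/+ replicate 1 and Jag1Ndr/Ndr replicates 1 and 2 this gave 5 libraries at E16.5. At P3, library A (labelled Jag1+/+ replicate 1) shared 19927 barcodes with the matrix labelled Jag1Ndr/Ndr replicate 1, and library B (labelled Jag1+/+ replicate 2) shared 16145 with that labelled Jag1Ndr/Ndr replicate 2, so the genotype of A and B is unclear. A also shared 18105 barcodes with Jag1Ndr/Ndr replicate 2, and B held all 15754 barcodes of Jag1Ndr/+ replicate 2. Because of these overlaps the matrices of Jag1Ndr/+ replicate 2 and Jag1Ndr/Ndr replicate 2 at P3 were not used. Library C was Jag1Ndr/Ndr replicate 1 without the barcodes of A, and library D was Jag1Ndr/+ replicate 1. Values for each library below follow this order, the 5 at E16.5 and then A to D. Stage cannot be told apart from the digestion, the software version and gene list of the matrices, or any other difference between the collections.

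The gated cells were deep relative to all passing barcodes of their libraries. Their median was 15676, 8107, 15510, 14062 and 11871 UMIs at E16.5 and 8851, 10336, 6976 and 5024 at P3, against 2961 to 9256 over all passing barcodes of a library. Such depth was not particular to them. Barcodes outside the gate with at least 10 UMIs of Elane, Mpo and Prtn3 had medians of 8185.5 to 20337 UMIs by library. Barcodes with at least 1 UMI of Kit and of Klf1 had medians of 9330 to 25493.5. Summed over the gated cells, a library held 198744 to 604292 UMIs. Scrublet called 21 of the 335 cells doublets.

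The gate rested on few molecules. The median cell held 1 UMI of Kit and 2 of Cd34 at both stages, 216 of 335 cells held exactly 1 Kit UMI, 130 exactly 1 Cd34 UMI, and 95 exactly 1 of each. Kit lies at chr5:75574916-75656722 and Cd34 at chr1:194938819-194961279 (GRCm38), and RNA of both is needed in 1 droplet. Of 2372 barcodes with both, the granule genes Elane, Mpo and Prtn3 removed 1479 and the erythroid factor Klf1 removed 965. The platelet chemokine Pf4 removed 524, the basophil protease Mcpt8 187, and the endothelial receptors Kdr and Stab2 139 and 116, with overlaps among all of these. Just inside the granule limit, 67 gated cells held 5 to 9 UMIs of the 3 genes, and just outside it 31 barcodes that met all other conditions held 10 to 14.

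The gated cells were not of 1 kind, and only some of them carried the genes of stem cells. At full depth 88 of 335 cells held a UMI of Hlf, a transcription factor of stem cells. Of all gated cells, 84 (25.1%) spent at least 0.5% of their UMIs on the MHC class II genes H2-Aa, H2-Ab1, H2-Eb1 and Cd74, whose products present peptides to T cells. None of these 84 (median 6959.5 UMIs) held a UMI of Hlf, against 35.1% of the 251 others (median 11124 UMIs). By the approximate limit of 3 divided by the number of cells, a count of 0 allows a share with a Hlf UMI of up to 3.57% at that depth. It sets no limit on the share of cells that express the gene. This limit of 0.5% was set after the values had been seen, so the class II-rich cells are described and not tested. Few cells lay near it, 9 between 0.25% and 0.5% and 11 between 0.5% and 1%, while 233 cells were under 0.1% and 73 at 1% or more. At full depth Meis1, a homeobox partner of Hox proteins, was found in 3 of 84 class II-rich and 121 of 251 other gated cells. Since stem cell genes were found in a fraction of the barcodes and were rare in another, all are called gated cells here.

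Shares of cells with a UMI were compared after every cell had been thinned to 2000 UMIs, which left out 2 gated cells, 1 class II-rich and 1 other. Globin-rich barcodes of the same libraries had at least 50% of their UMIs on globin. They served as a guide to free RNA for genes that erythroid cells do not express. Their median depth was 7608.5 UMIs at E16.5 and 3712.75 at P3 before thinning. On average at most 50% of their thinned UMIs were left for genes other than globin. Among 83 class II-rich cells (median 7056 UMIs) Irf8 was found in 96.4%, against 15.6% of the 250 other gated cells (median 11161 UMIs) and 0.6% and 2.1% of globin-rich barcodes at E16.5 and P3. Batf3, a transcription factor of dendritic cells that take up dead cells, was found in 39.8% against 2.0%. Clec9a, the receptor of those cells for exposed actin, was found in 32.5% against 0.4%, and the lipid amidase Naaa in 48.2% against 1.2%. In globin-rich barcodes Batf3 was found in 0.04% at E16.5 and 0.111% at P3, Clec9a in 0.08% and 0, and Naaa in 0.12% and 0.111%.

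Several genes of the stem cell list had the opposite distribution, but Ly6a did not. Hlf was found in 0 of 83 class II-rich cells and 17.2% of the others, Hoxa9 in 0 and 12.0%, and Meis1 in 1.2% and 14.8%. Ly6a was found in 16.9% of class II-rich and 3.2% of other gated cells, and in 44.6% and 11.6% of the same cells at full depth. At E16.5 alone Ly6a was found in 1 of 13 class II-rich and 1 of 145 other gated cells after thinning, and in 1 of 13 and 12 of 145 at full depth, too few cells to compare. Ctla2a, a cysteine protease inhibitor, was found in 1.2% against 40.8%. The gate required a UMI of Kit and of Cd34 in every cell, so their shares are not compared. Flt3, the receptor of lymphoid-primed and dendritic progenitors, was found in both kinds of cell, at 14.5% and 20.8%. Notch1 was found in 1.2% of class II-rich and 16% of other gated cells, and Notch2 in 16.9% and 6.8%. For Notch2 the exact binomial intervals overlapped (9.54 to 26.7% and 4.01 to 10.7%), and at full depth the shares were 34.9% and 32%. Among the other gated cells Hlf was found in 15.9% at E16.5 and 19% at P3 after thinning, and at full depth in 50 of 145 and 38 of 106 cells (34.5% and 35.8%).

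**Figure D1:**
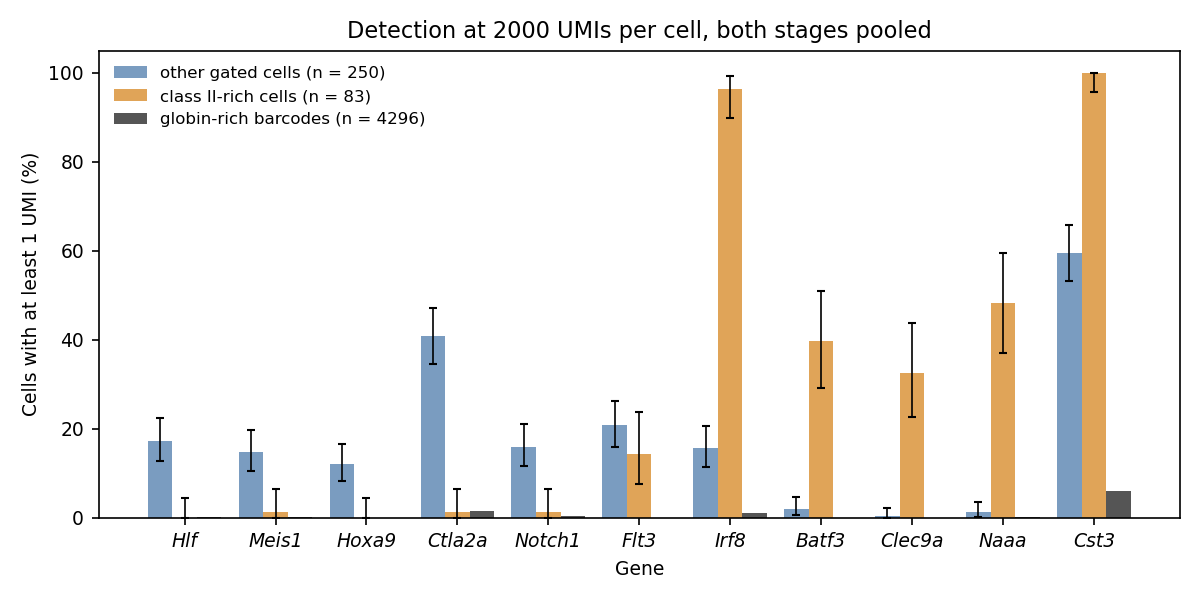
Percent of cells with at least 1 UMI of each gene after thinning every cell to 2000 UMIs, for class II-rich gated cells, other gated cells and globin-rich barcodes of both stages together, with 95% exact binomial intervals. Irf8, Batf3, Clec9a and Naaa were common in class II-rich cells, Hlf, Hoxa9 and Ctla2a in the others, and Flt3 in both.

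The upstream sequences of 2 class II genes are shown because these genes defined the class II-rich cells and were both higher in the gated cells at P3. In the RefSeq promoter table of the GRCm38.p6 build, 4 of 7 class II pathway genes searched had an entry. Each line gives the 150 bases before the start site, 5′ to 3′ on the gene's strand. Capitals mark TGATTGG, the letters of the Y box, which nuclear factor Y is known to bind in promoters of class II genes. H2-Aa lies on the minus strand (chr17:34287824-34287973) and H2-Eb1 on the plus strand (chr17:34305717-34305866).
H2-Aa: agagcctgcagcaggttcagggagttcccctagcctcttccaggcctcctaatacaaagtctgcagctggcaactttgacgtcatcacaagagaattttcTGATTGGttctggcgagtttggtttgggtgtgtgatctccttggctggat
H2-Eb1: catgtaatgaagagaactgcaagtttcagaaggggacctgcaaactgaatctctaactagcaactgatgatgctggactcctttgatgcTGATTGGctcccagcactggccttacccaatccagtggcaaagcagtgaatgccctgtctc
The 7 letters began 50 bases before the start of H2-Aa and 61 before that of H2-Eb1, and H2-DMb1 held them 63 bases before its start, whereas H2-DMa did not hold them. Searched on both strands, they occurred in 1877 of 32851 promoters of the same length (5.71%). A match describes the letters only.

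The class II-rich share of the gated cells was higher at P3 in every library. It was 12.5%, 5%, 5.26%, 9.52% and 11.6% at E16.5 (13 of 158 cells, 8.23%, exact binomial interval 4.45 to 13.7%). At P3 it was 29.3%, 47.4%, 37.9% and 48.5% (71 of 177 cells, 40.1%, interval 32.8 to 47.7%). The libraries of the 2 stages did not overlap, and the highest share at E16.5, in Jag1+/+ replicate 1, rested on 2 of 16 cells. Intervals cover counting error within the pooled cells only.

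**Figure D2:**
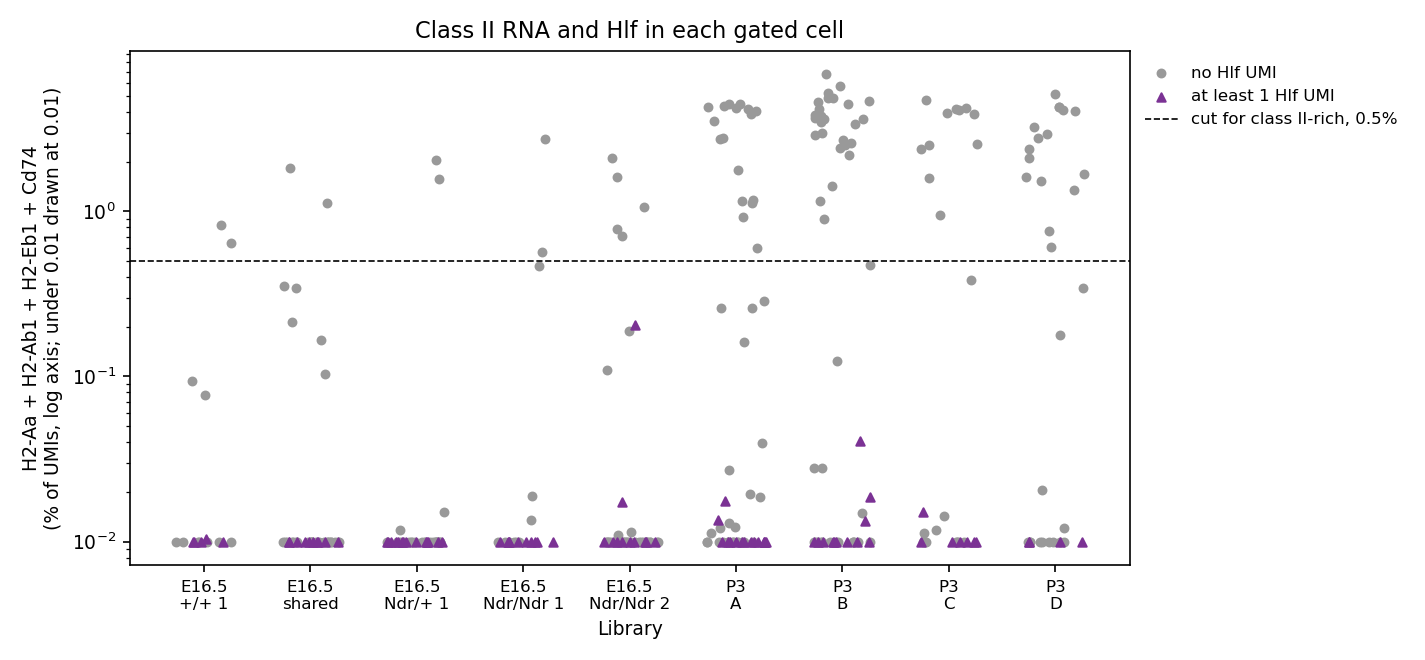
Percent of each gated cell's UMIs on H2-Aa, H2-Ab1, H2-Eb1 and Cd74, by library, with the limit of 0.5% drawn. Cells of the P3 libraries A to D lie above the limit in 29.3% to 48.5% of cases and those of the E16.5 libraries in 5% to 12.5%.

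Leiden clustering of the 335 cells gave 10 clusters, which are described by their leading genes. Most clusters came almost wholly from 1 stage, so their sizes are not compared. Cluster 1 (61 cells, 60 from E16.5) was led by Hlf, Ctla2a, Gem and Nr4a1, and 41 of its cells held Hlf. Cluster 2 (50 cells, all from P3, 21 with Hlf) was led by the granzymes Gzma and Gzmb, the T cell receptor constant gene Trbc2 and Nkg7, and cluster 7 (29 cells, 27 from P3, 15 with Hlf) by Col1a1, Cdkn1c and Sparc. Clusters 4, 8 and 10 held 8, 2 and 1 further cells with Hlf. The leading genes of cluster 7 also included Col1a2, Dlk1 and the mast cell gene Cpa3. It held 10, 8, 6 and 3 cells from libraries A to D, while a list of mesenchymal genes with Col1a1 and Col1a2 summed to 0 CPM in C and D. Collagen RNA was thus not found in all cells of cluster 7, and whether it lay in those with Hlf was not tested. All 47 cells of cluster 3 were class II-rich and from P3. Cluster 5 (38 cells, 36 from P3) was led by Ms4a6c, Cd7 and Batf3 and held 24 class II-rich cells, and cluster 6 (29 cells, 28 from E16.5) was led by Ly86 and held 11.

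The remaining clusters were led by genes of hepatocytes, neutrophils, monocytes or B cells. Cluster 4 (42 cells, all from E16.5, median 5616 UMIs) was led by the hepatocyte genes Afp and Alb. Cluster 8 (16 cells) was led by the neutrophil granule genes Ngp, Lcn2 and Camp, and 11 of its cells were called doublets. Cluster 9 (13 cells) was led by the monocyte genes F13a1, Lyz2 and Ly6c2, and cluster 10 (10 cells) by the surrogate light chain genes Igll1 and Vpreb1 with Ebf1.

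The share of passing barcodes that fell in the gate was higher on average at P3 with the gate as given, and the size of the difference depended on how the gate was set. It was 0.0845%, 0.194%, 0.131%, 0.114% and 0.163% at E16.5 and 0.270%, 0.325%, 0.193% and 0.194% at P3. Libraries C and D lay at the level of the shared E16.5 library, and A and B above all E16.5 libraries. The mean at P3 was 1.81-fold that at E16.5 (difference of mean log2 shares 0.86; exact permutation test over libraries, 2-sided p = 0.0317, 0.0635 adjusted over the 2 tests of shares, smallest possible p 0.00794). With the granule genes at 0 UMIs the mean at P3 was 2.28-fold that at E16.5 (exact permutation p = 0.00794, the smallest possible), with a minimum of 2000 UMIs it was 2.01-fold (exact p = 0.0238), and with the UMIs of Kit and Cd34 alone thinned it was 2.39-fold (exact p = 0.103). Without the class II-rich cells the difference was 0.22 on the log2 scale (exact permutation p = 0.516), with Kit required at 2 UMIs or more it was -0.25 (exact p = 0.508), and with every barcode thinned to 1000 UMIs before gating it was -0.08 (exact p = 0.849). Neither negative value was told apart from no difference. Thinning every barcode also removes UMIs of the excluding genes, so barcodes outside the gate at full depth can enter. It left a mean of 2.05 to 10.65 members a library, against 0.4 to 3.45 with Kit and Cd34 alone thinned. The denominator counts all barcodes of a liver, so a change in other cells moves the share too.

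At E16.5 the share in the 2 Jag1Ndr/Ndr libraries, 0.114% and 0.163%, lay within the range of the other 3 libraries. The mean was 1.06-fold that of the others (log2 0.08; exact permutation p = 0.9, 2-sided). The smallest p that 2 against 3 libraries allow is 0.1.

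**Figure D3:**
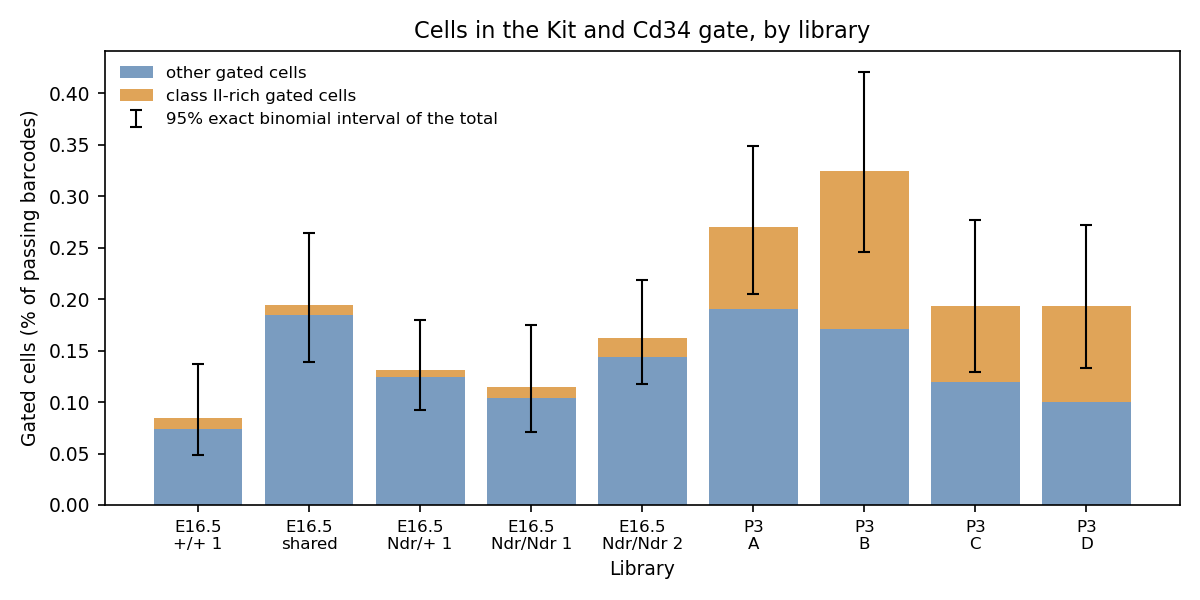
Percent of passing barcodes in the gate for each library, as bars split into class II-rich and other gated cells, with the 95% exact binomial interval of the total. P3 libraries A and B, at 0.270% and 0.325%, lie above every E16.5 library when all gated cells are counted.

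For gene expression the UMI counts of the gated cells were summed within each library, and P3 was set against E16.5 with edgeR's quasi-likelihood test on 5228 genes (4 against 5 libraries, Benjamini-Hochberg adjusted p under 0.05). Values are CPM, the UMIs of a gene scaled to 1000000 UMIs per library over the genes measured at both stages. In such sums, a smaller fraction of cells expressing a gene and less RNA of it per cell cannot be told apart. The test called 1319 genes, 25.2% of those tested, 618 higher (11.8%) and 701 lower (13.4%) at P3. These shares stand for the background of every list of genes below. Without the class II-rich cells it called 1005 of 5233 (19.2%), 456 higher (8.71%) and 549 lower (10.5%), with 851 of them among the 1319, all in the same direction. Of the 1319, 1183 were also called in the same direction in all other passing barcodes, where 54.1% of 14490 genes were called.

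RNA that marks other cell types, above all erythroid cells and hepatocytes, moved with stage in these sums. All 7 erythroid genes, among them globins and Alas2, were lower at P3, with a summed level of 93525 to 167852 CPM at E16.5 and 9038 to 35983 at P3. Of 7 hepatocyte genes 6 fell, with a summed 727 to 7458 CPM at E16.5 and 50 to 293 CPM at P3. None of the 7 neutrophil genes passed, with sums of 606 to 13678 and 8050 to 20936 CPM. No gene of the macrophage, mesenchymal or megakaryocyte lists had enough counts to be tested. Their sums were at most 163 CPM for macrophages and 33 for megakaryocytes. The mesenchymal sum was 1133 CPM in Jag1Ndr/Ndr replicate 2, 425 in library A, 338 in B and at most 16 in the others. Of the T and NK list, Trbc2 alone had enough counts, and it was higher at P3 (1.04 ± 0.33 on the log2 scale, adjusted p = 0.029). That list summed to 51.8 to 256 CPM at E16.5 and 176 to 316 CPM at P3. After thinning, Trbc2 was found in 4.83% of the gated cells that were not class II-rich at E16.5 and 26.7% at P3. In globin-rich barcodes it was found in 0.04% and 0, and within the gate it was among the leading genes of cluster 2. Of 2 plasmacytoid dendritic genes tested, Tcf4 was lower (-0.99 ± 0.20, adjusted p = 0.0018), with sums of 280 to 439 and 218 to 290 CPM. The part of such RNA in the differences that follow was not tested.

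Antigen presentation genes rose. Of 11 MHC genes, 9 were higher at P3 and none lower, with a median log2 fold change of 1.66 against 0.01 over all genes tested. Cd74, the invariant chain of class II molecules, was at 451, 400, 356, 1161 and 747 CPM at E16.5 and at 3636, 5891, 5602 and 3962 CPM at P3. Its log2 fold change was 2.78 with an SE of 0.31 (adjusted p = 1.4e-05; ± after a fold change stands for the SE throughout). H2-Aa, a class II alpha chain, was at 327, 276, 168, 520 and 448 CPM and at 1266, 2371, 2186 and 2295 CPM (2.40 ± 0.28, adjusted p = 1.8e-05). For both genes every P3 library lay above every E16.5 library, and the 2 Jag1Ndr/Ndr libraries were the highest at E16.5. The level in Jag1Ndr/Ndr replicate 1 rested largely on 1 of its 21 cells, with 2.76% of 23100 UMIs on the 4 class II genes. Its only other class II-rich cell had 0.569% of 17922 UMIs on them. In all other passing barcodes Cd74 rose by 3.87 ± 0.28 and H2-Aa by 2.70 ± 0.26.

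Other genes of the class II pathway rose with them. The class II transactivator Ciita rose by 2.84 ± 0.39 on the log2 scale, H2-Eb1 by 2.68 ± 0.33, H2-Ab1 by 2.55 ± 0.39 and the peptide-loading gene H2-DMb1 by 2.55 ± 0.30. Class I genes rose less, H2-K1 by 1.66 ± 0.24, the peptide transporter Tap1 by 1.78 ± 0.28 and the immunoproteasome subunit Psmb8 by 1.40 ± 0.20, whereas B2m differed by -0.35 ± 0.17 (adjusted p = 0.14).

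Without the class II-rich cells, 3 of 10 MHC genes tested were higher, namely H2-K1 (1.33 ± 0.22), Psmb8 (0.93 ± 0.18) and Cd74 (1.28 ± 0.41, adjusted p = 0.039). Tap1 missed the threshold (adjusted p = 0.061). H2-Aa then differed by 0.70 ± 0.56 (adjusted p = 0.40) and H2-Ab1 by -0.55 ± 0.47 (adjusted p = 0.44). Removing cells by their class II content fixes much of this change for the class II genes themselves. The class I genes did not enter that choice.

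Of 6 granulocyte-monocyte genes tested, Irf8 and Cebpe were higher at P3 and none lower. Cebpe, a factor of granulocyte maturation, differed by 1.42 ± 0.50 (adjusted p = 0.046), and by 1.57 ± 0.55 without the class II-rich cells (adjusted p = 0.056), where Ly86 was the one gene called, lower at P3 (-0.88 ± 0.28, adjusted p = 0.037). With called doublets left out Cebpe had too few counts to be tested, and Csf1r (1.10 ± 0.36) and Csf2ra (1.00 ± 0.34) were called higher beside Irf8. The median log2 fold change of the neutrophil list was 0.99 with all gated cells and -0.18 with called doublets left out, and its part was not tested. Irf8 was at 231, 328, 94.6, 341 and 350 CPM at E16.5 and at 726, 1142, 1132 and 982 CPM at P3 (1.75 ± 0.28, adjusted p = 0.00028). No P3 library was as low as any E16.5 library, and without the class II-rich cells the difference was 0.65 ± 0.27 (adjusted p = 0.10). Further genes rose that stand in no list and are named for the size of their change. Clec9a rose by 1.95 ± 0.35, the small GTPase gene Rab7b by 1.98 ± 0.32 and Aif1, a calcium-binding protein of myeloid cells, by 1.97 ± 0.36. Aif1 differed by -0.0230 ± 0.54 once the class II-rich cells were left out (adjusted p = 0.99). Shtn1 rose by 2.44 ± 0.36. The sorting nexin Snx22 rose from 1.75 to 12.8 CPM over the E16.5 libraries to 40.0 to 65.4 CPM at P3 (2.94 ± 0.40). Clec9a, Rab7b, Shtn1 and Snx22 had too few counts to be tested without the class II-rich cells.

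Of 16 genes of the stem cell list, 8 were tested. Ly6a was higher and Mllt3 and Hlf were lower, 3 of 8 against 25.2% of all genes called, and the median log2 fold change was -0.75 against 0.01 over all genes tested. Hlf was at 159, 98.1, 73.6, 185 and 98.4 CPM at E16.5 and at 61.6, 91.1, 51.2 and 30.2 CPM at P3 (-1.05 ± 0.31, adjusted p = 0.019). The stages overlapped for Hlf, since library B lay above the Jag1Ndr/+ library of E16.5. Without the class II-rich cells, which held no Hlf, the difference was -0.64 ± 0.31 (adjusted p = 0.16). Mllt3, a chromatin reader that sustains stem cells, fell by 1.67 on the log2 scale (SE 0.25, adjusted p = 0.00014) and differed by -1.77 ± 0.27 without them, while in all other passing barcodes it fell by 2.57. Meis1 (-0.34 ± 0.21, adjusted p = 0.26) and Hoxa9 (-0.91 ± 0.39, 0.097) did not pass.

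Ly6a encodes Sca-1, a surface protein by which adult mouse stem cells are sorted. It was at 15.9, 2.58, 7.01, 8.97 and 1.82 CPM at E16.5 and at 56.6, 104, 68.3 and 85.6 CPM at P3 (3.45 ± 0.40, adjusted p = 1.8e-05). Every P3 library lay above every E16.5 library. Ly6a was also called higher at P3 in all other passing barcodes and in barcodes with at least 10 UMIs of Elane, Mpo and Prtn3. The rise was thus not limited to the gated cells. At full depth 36 of 71 class II-rich cells at P3 held a Ly6a UMI, against 17 of 106 other gated cells. Among the other gated cells Ly6a was at 18.2, 2.7, 7.3, 6.8 and 2.1 CPM at E16.5 and at 54.4, 20.7, 6.3 and 9.1 CPM at P3, where C and D lay within the E16.5 range and A and B above it, and Ly6a had too few counts to be tested there.

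Of 10 lymphoid-primed genes tested, Cd48 and Il12a were lower at P3 and none was higher, against 13.4% and 11.8% of all genes, so the count lay near the background. Cd48, a ligand of CD244 that is used to set multipotent progenitors apart from stem cells, was at 191, 142, 181, 209 and 151 CPM at E16.5 and at 94.9, 51.3, 59.8 and 35.2 CPM at P3 (-1.59 ± 0.24, adjusted p = 0.00018). Its P3 libraries were all under its E16.5 libraries, and without the class II-rich cells the difference was -1.62 ± 0.25. In all other passing barcodes it was -0.93 ± 0.27. Il12a was also lower (-1.74 ± 0.46), and the other 8 genes did not pass, among them Flt3 (0.13 ± 0.25, adjusted p = 0.74) and the chromatin organiser Satb1 (-0.25 ± 0.21, 0.41). Of 7 B lineage genes tested, 4 were lower and none higher, with a median of -1.49. Vpreb1, part of the surrogate light chain, was at 187, 56.8, 52.6, 269 and 111 CPM at E16.5 and at 3.33, 0, 0 and 25.2 CPM at P3 (-4.93 ± 0.75, adjusted p = 0.00017). Ebf1, the B lineage factor, was at 123 to 427 CPM and 16.6 to 121 CPM (-2.43 ± 0.42).

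Ctla2a, which was more often found in the gated cells that were not class II-rich, was at 678, 380, 491, 574 and 576 CPM at E16.5 and at 207, 258, 184 and 70.5 CPM at P3 (-1.66 ± 0.27, adjusted p = 0.00029). It was lower in all P3 libraries and remained so without the class II-rich cells (-1.27 ± 0.26, adjusted p = 0.0031). In all other passing barcodes Ctla2a was higher at P3, by 0.51 ± 0.15. Of 4 megakaryocyte-erythroid genes tested, the carbonic anhydrase Car2 (-2.81 ± 0.20), the stem cell leukaemia factor Tal1 (-2.73 ± 0.41) and the GATA1 cofactor Zfpm1 were lower at P3 (Zfpm1 not without the class II-rich cells, -0.73, adjusted p = 0.074), alongside the erythroid sums given above.

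**Figure D4:**
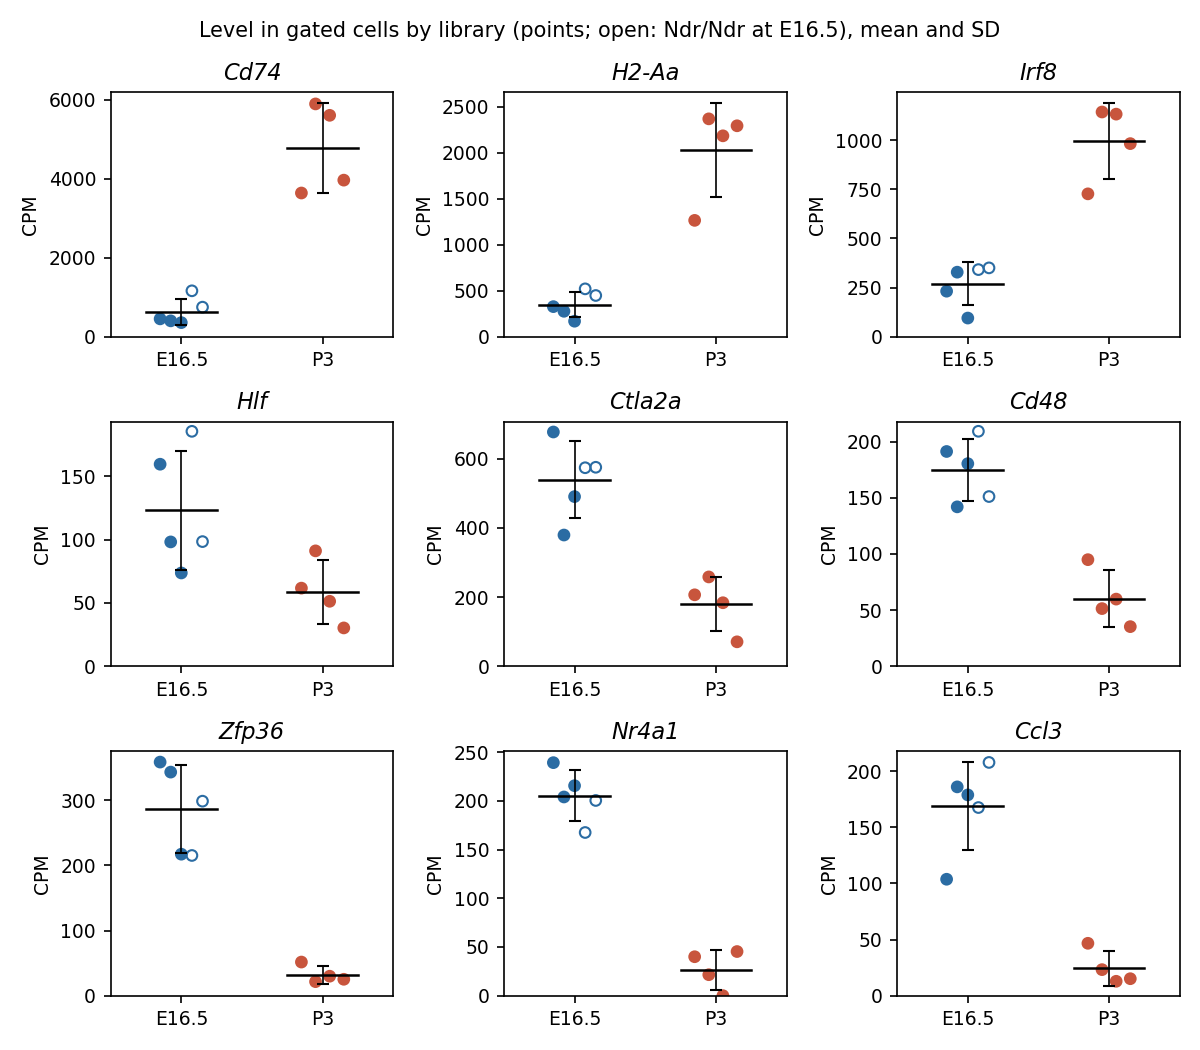
CPM over gated cells in each library for 9 genes, with mean and SD by stage and open points for the 2 Jag1Ndr/Ndr libraries of E16.5. Cd74, H2-Aa and Irf8 are higher and Ctla2a, Cd48, Zfp36, Nr4a1 and Ccl3 lower in every P3 library, while the stages overlap for Hlf.

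Of 16 G2/M genes 5 were lower and none higher, against 13.4% lower over all genes, with a median of -0.44. These were Cdk1 (-1.42 ± 0.26), the ubiquitin-conjugating enzyme Ube2c (-1.15 ± 0.18), Birc5, Nusap1 and Ccnb2, and with Kit at 2 UMIs or more the sign turned for Nusap1 (0.10) and Ccnb2 (0.45). Ccnb2 did not pass with called doublets left out (adjusted p = 0.085). Mki67 (-0.47 ± 0.23, adjusted p = 0.14) and Top2a (-0.08 ± 0.21, 0.82) did not pass. Of 15 S phase genes 2 were called, against 25.2% of all genes, and 4 without the class II-rich cells (Mcm3, Mcm6 and Mcm7 higher, Rrm2 lower), against 19.2%. The replication licensing gene Mcm3 was higher (0.52 ± 0.18, adjusted p = 0.048), a call that was lost with DESeq2 (adjusted p = 0.081) and without called doublets (adjusted p = 0.090), and the reductase subunit Rrm2 was lower (-1.13 ± 0.28). After thinning to 2000 UMIs, Mki67 was found in 57.2% of the gated cells that were not class II-rich at E16.5 and 31.4% at P3, and in 45.1% and 27.2% of globin-rich barcodes. Top2a differed little between stages in the same gated cells (45.5% and 44.8%), and was found in 27.7% and 14.5% of globin-rich barcodes. The globin-rich barcodes may express Mki67 and Top2a themselves, so they give no level of free RNA for either. Of 7 genes tested among CDK inhibitors and antiproliferative genes 2 were called, near the 25.2% of all genes. Btg1 (-0.89 ± 0.26) and Btg2 (-1.30 ± 0.27) were lower, and Cdkn1b (-0.37 ± 0.23, adjusted p = 0.26) did not pass. Without the class II-rich cells all 3 were called lower.

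Of 14 tested genes for adhesion and cytokine receptors 4 were called, 2 in each direction, near the 25.2% of all genes. The interleukin 3 receptor Il3ra (1.88 ± 0.35) and the interferon gamma receptor Ifngr1 (0.86 ± 0.17) were higher, and the chemokine receptor Cxcr4 (-1.24 ± 0.32) and the hyaluronan receptor Cd44 (-0.82 ± 0.24) lower. Ifngr1 did not differ beyond its error without the class II-rich cells (0.14 ± 0.21, adjusted p = 0.78). Of 9 interferon-stimulated genes tested, 3 were higher and none lower, among them Irf7 (2.93 ± 0.48) and Ifitm3 (1.22 ± 0.22). Of 4 fetal programme genes tested, Igf2bp3 was higher (0.55 ± 0.20) and Igf2bp2 lower (-1.19 ± 0.39). DESeq2 called neither (adjusted p = 0.11 and 0.055), and without the class II-rich cells Igf2bp2 was not called (-0.79 ± 0.42, adjusted p = 0.20). Hmga2, a chromatin protein of fetal stem cells, was at 140 to 224 CPM at E16.5 and 101 to 209 CPM at P3 (-0.37 ± 0.21, adjusted p = 0.22).

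Of the Notch pathway, which the Jag1 allele touches, 4 of 20 genes had enough counts to be tested. At P3 1 of the 4 was called, lower, near the 25.2% called over all genes. The receptor Notch2 was at 39.9, 64.6, 47.3, 65.8 and 89.3 CPM at E16.5 and at 25, 29.8, 8.54 and 35.2 CPM at P3 (-1.44 ± 0.32, adjusted p = 0.0038), and the groups did not overlap. It was also lower without the class II-rich cells (-1.80 ± 0.34), and in all other passing barcodes (-1.11 ± 0.18). Notch1, the other receptor with a measurable level, was at 63.8, 54.2, 29.8, 71.8 and 74.7 CPM and at 73.3, 56.3, 64.0 and 95.6 CPM (0.14 ± 0.26, adjusted p = 0.74). The target Hes1 was at 0 to 29.9 CPM over all 9 libraries, and Jag1 itself was at 0 to 5.16 CPM at E16.5 and at 0 in all P3 libraries.

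Early response genes were lower at P3. Of 10 tested genes that enzymatic dissociation is known to induce, 7 were lower and none higher, with a median of -0.95. The mRNA decay factor Zfp36 was at 359, 343, 217, 215 and 299 CPM at E16.5 and at 51.6, 21.5, 29.9 and 25.2 CPM at P3 (-3.20 ± 0.25, adjusted p = 3.5e-07). The nuclear receptor Nr4a1 was at 239, 204, 216, 168 and 200 CPM and at 40.0, 21.5, 0 and 45.3 CPM (-3.02 ± 0.33, adjusted p = 1.2e-05). Neither gene's stages overlapped, and the chemokines Ccl3 (-2.74 ± 0.31) and Ccl4 (-3.23 ± 0.30) and the kinase gene Plk2 (-3.61 ± 0.50) fell likewise. Fosl2 (-2.25 ± 0.38), Nr4a2 (-1.99 ± 0.21), Dusp1 (-1.45 ± 0.22) and the kinase gene Stk17b (-1.90 ± 0.24) were also among the named genes that were lower. The log2 fold change of Zfp36 was -2.74 in all other passing barcodes and -3.35 in granule-gene-rich barcodes, and that of Nr4a1 was -2.41 and -3.27, so the fall was not limited to the gated cells. TrypLE was used at E16.5 only, and its part in these values was not tested.

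**Figure D5:**
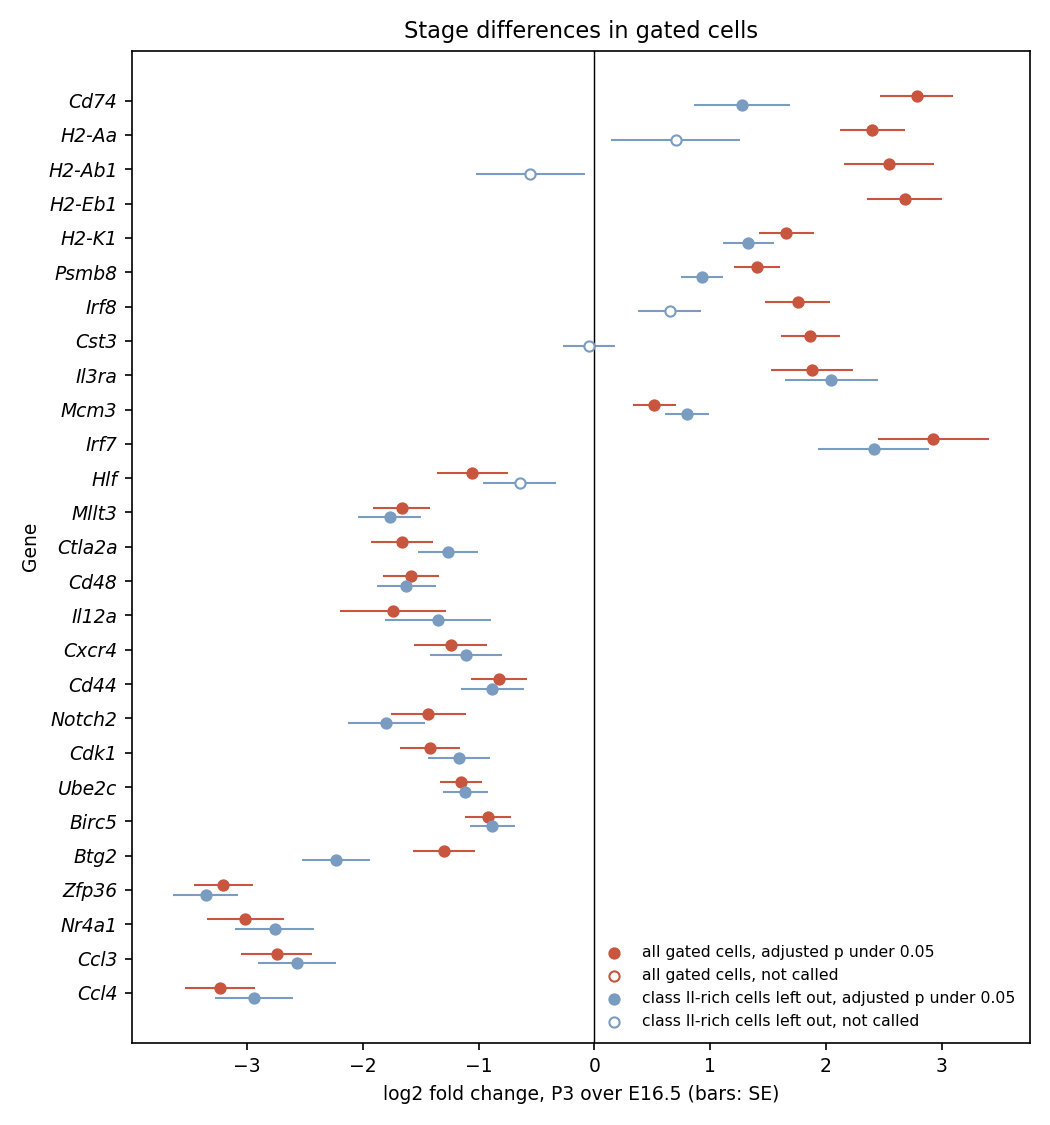
Log2 fold change (P3 over E16.5) with its SE in gated cells for 27 genes, with all gated cells and without the class II-rich ones, filled where the adjusted p was under 0.05. H2-Aa and Irf8 move towards 0 without the class II-rich cells, while Cd48, Notch2, Zfp36 and Nr4a1 keep values of -1.62, -1.80, -3.36 and -2.76, and H2-Eb1 had too few counts to be tested without them.

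To see which stage changes differed from those of neighbouring cells of the same libraries, the stage effect in the gated cells was set against that in 9258 barcodes with at least 10 UMIs of Elane, Mpo and Prtn3 (the promyelocyte gate), with library as a block. The interaction was called for 60 of 11195 genes (0.536%), 25 in favour of the gated cells at P3 (0.223%) and 35 against (0.313%). With relative log expression (RLE) scaling the split was 28 of 46 in favour. The naming rule was met by 8 genes, all in favour of the gated cells. Snx22 led with a log2 difference of 3.48 ± 0.56 (adjusted p = 0.0027), followed by the thioesterase Ppt1 (1.77 ± 0.29), the creatine kinase Ckb (1.60 ± 0.29), Plbd1 (1.49 ± 0.29), Fam129a (1.48 ± 0.25), the GTPase gene Gimap6 (1.32 ± 0.25), the protease inhibitor Cst3 (1.30 ± 0.18) and the differentiation inhibitor Id3 (1.18 ± 0.24).

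Several of these genes were concentrated in the class II-rich cells. Cst3 was at 1850, 1702, 1400, 3566 and 2339 CPM at E16.5 and at 5660, 10537, 9180 and 9786 CPM at P3, and its pooled level at P3 was 24297 CPM in class II-rich and 1042 CPM in other gated cells. Gimap6 was at 81.3 ± 18.7 CPM (SD, n = 5) and 94.9 ± 22.4 CPM (n = 4) in the gated cells and fell by 1.24 in the promyelocyte gate, where 50.5% of genes were called between stages. Without the class II-rich cells 15 genes were called, of the 8 named above only Gimap6 (1.82 ± 0.26), and the difference turned negative for Snx22 (-1.20), Cst3 (-0.56), Ppt1 (-0.44) and Plbd1 (-0.08). The early response genes Zfp36 (0.00 ± 0.30), Nr4a1 (0.10 ± 0.32) and Ccl3 (0.41 ± 0.33) showed no interaction that passed, whereas Dusp1 fell less in the gated cells (1.14 ± 0.20, adjusted p = 0.0040), a call that was lost without the class II-rich cells (0.49 ± 0.25, adjusted p = 0.71). The cell cycle genes Birc5 (-0.79 ± 0.15, adjusted p = 0.0081), Ube2c, Ccnb2 and Rrm2 fell further in the gated cells than in the promyelocyte gate. Without the class II-rich cells none of the 4 passed (-0.58 to -0.80, adjusted p 0.14 to 0.47), and with Kit at 2 UMIs or more the difference turned for Ccnb2 (0.23) and Ube2c (0.12).

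Against 8303 barcodes with at least 1 UMI of Kit and of Klf1 (the early erythroid gate), the interaction was called for 1782 of 11442 genes (15.6%), 993 in favour of the gated cells at P3 (8.68%) and 789 against (6.9%). RLE scaling moved the median of all genes from -0.11 to 0.02 and the split to 1113 of 1585 in favour. The genes with the largest named differences in favour were Id3 (3.48 ± 0.28), Snx22 (3.45 ± 0.51), Ly6a (3.42 ± 0.65), Cdk14, Ccl4, Slamf7 and Flt3 (3.07 ± 0.31). Flt3 differed by 0.13 ± 0.25 in the gated cells and fell by 2.96 in the early erythroid gate, where 61.4% of genes were called between stages, and Notch1 fell there by 2.50 (interaction 2.65 ± 0.34). With the class II-rich cells left out Id3 (2.56 ± 0.39), Ccl4 (3.40 ± 0.42), Flt3 (3.01 ± 0.35) and Notch1 (2.96 ± 0.36) were still called. The calls of Ly6a (1.68 ± 0.85, adjusted p = 0.25), Cdk14 (adjusted p = 0.57) and Slamf7 (0.32) were lost, and Snx22 turned (-1.36 ± 1.46, adjusted p = 0.64). The 2 comparison gates were not exclusive, and 1155 barcodes met both and were counted in each. Of the early erythroid gate these were 160 of 918, 315 of 1370, 167 of 1275, 114 of 677 and 201 of 1295 barcodes at E16.5. At P3 they were 84 of 890, 58 of 809, 27 of 448 and 29 of 621, and their part in the differences was not tested.

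At E16.5 the 2 Jag1Ndr/Ndr libraries were set against the other 3 with the same edgeR test. Of 5454 genes 2 were called (0.0367%), both higher with the homozygous allele, and 209 had an unadjusted p under 0.05, while DESeq2 called 7, with Mmp8 among them and Retnlg not. Retnlg, a secreted protein of neutrophils, was at 0, 7.75 and 22.8 CPM in the others and at 245 and 191 CPM in Jag1Ndr/Ndr (4.12 ± 0.49, adjusted p = 0.0032; 0.17 with DESeq2). Mmp8, the neutrophil collagenase, was at 15.9, 25.8 and 10.5 CPM and at 176 and 94.7 CPM (3.03 ± 0.42, adjusted p = 0.0087). The neutrophil list summed to 606, 4852 and 13678 CPM in the others and 11083 and 10751 CPM in Jag1Ndr/Ndr, and the part of neutrophil RNA was not tested. Without the cells called doublets edgeR called 0 genes (190 at an unadjusted p under 0.05), and Retnlg differed by 3.53 ± 0.68 (adjusted p = 0.15).

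The next genes by p were the imprinted RNA H19 (87.7, 90.4 and 70.1 against 230 and 219 CPM; 1.52 ± 0.26, adjusted p = 0.0505) and the transglutaminase chain F13a1 (99.7, 111 and 28 against 0 and 5.47 CPM; -4.30 ± 0.78, adjusted p = 0.0753). Cluster 9, which F13a1 led, held 2, 5 and 3 cells of the other libraries and 0 of either Jag1Ndr/Ndr library. No Notch gene passed, with Notch1 at 0.72 ± 0.35 and Notch2 at 0.68 ± 0.33. Nor did stem cell genes pass (Hlf 0.48 ± 0.35, Meis1 0.04 ± 0.31), or Cd74 (1.34 ± 0.27, adjusted p = 0.14) and H2-Ab1 (1.28 ± 0.27, 0.17), in edgeR. DESeq2 called Cd74 (adjusted p = 0.0044), H2-Ab1 (0.047), H19 (0.018) and the CDK inhibitor Cdkn1c (0.012) higher and F13a1 lower (0.014). Cluster 7, with Cdkn1c among its leading genes, held 1 cell of each Jag1Ndr/Ndr library and 0 of the other E16.5 libraries. The mesenchymal list summed to 5.98 and 1133 CPM in Jag1Ndr/Ndr and to at most 15.8 CPM in the others. In Jag1Ndr/Ndr replicate 1, 2 of 21 gated cells were class II-rich, 1 of them with 2.76% of 23100 UMIs on class II genes. The part of such single cells in these calls was not tested. Without the neutrophil-rich cells, those with at least 5% of UMIs on the neutrophil list, edgeR called H19 (adjusted p = 0.029), Cdkn1c (0.029) and F13a1 (0.031), and not Cd74 (0.052) or H2-Ab1 (0.087). Retnlg and Mmp8 then had too few counts to be tested, so neither call of the full set was left. In simulated counts of this size the test recovered 23.8% of genes changed by 1 log2 unit and 93.9% of those changed by 2. The simulation changed 63, 66 and 67 genes by 1, 2 and 3 log2 units, more than were called here, which eases the adjusted threshold. Its counts were drawn gene by gene and not from single cells. These shares are therefore no measure of what this comparison could find.

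At P3 only library C (Jag1Ndr/Ndr) and library D (Jag1Ndr/+) had a single label. Their values are given with exact Poisson intervals for counting error and no test. These intervals treat each UMI as independent and leave out the spread between cells and between animals. Intervals that do not meet are thus no sign of a difference between the labels. Hlf was at 51.2 CPM (26.5 to 89.5) in C and 30.2 CPM (11.1 to 65.7) in D, intervals that overlap. Ctla2a was at 184 CPM (133 to 247) in C and 70.5 CPM (38.5 to 118) in D. Cd74 was at 5602 CPM (5303 to 5914) in C and 3962 CPM (3690 to 4248) in D, while H2-Aa was at 2186 CPM (2001 to 2384) and 2295 CPM (2090 to 2516). Notch1 was at 64.0 CPM (35.8 to 106) and 95.6 CPM (57.6 to 149), again with overlapping intervals. The class II-rich share was 37.9% in C (11 of 29 cells, exact binomial interval 20.7 to 57.7%). It was 48.5% in D (16 of 33 cells, 30.8 to 66.5%), so the values of the class II genes rested on few cells.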

How the data were processed

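Livers were profiled by 10x Genomics single-cell RNA sequencing. The files deposited by the authors give UMI counts without normalisation. Per the submitters' processing notes they were made with Cell Ranger 2.1.1 on mm10, with R 4.1.2 and Seurat used later, whereas per the file headers the software version was 3.0.2 at P3 and 3.1.0 at E16.5. Gene lists held 31053 genes at E16.5 and 22597 at P3, and stages were compared over the 22519 in both.

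The cells, gene lists and comparisons were chosen with earlier results of these data known. Counts were summed per library over gated cells and tested with edgeR 4.0.16 in R 4.3.3 (quasi-likelihood F test, trimmed mean of M values scaling, filterByExpr, Benjamini-Hochberg adjustment over all genes tested). Shares were compared with exact permutation tests (scipy 1.17.1). Doublets were called per library with Scrublet (scanpy 1.11.5) and kept. In Jag1Ndr/Ndr replicate 1 its automatic threshold called 0%, so the top 5% of scores were called instead (5.48% of barcodes and 0 gated cells). Called rates ran from 3.67% in library C to 31.8% in Jag1Ndr/+ replicate 1. Clusters came from Leiden (igraph 0.11.9). The fits were tested on simulated data, where 64.6%, 98.5% and 100% of genes changed by 1, 2 and 3 log2 units between stages were recovered among 4925. Alternatives included DESeq2 1.42.0.

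Named genes were up to 12 higher and 12 lower per comparison by fold, with adjusted p under 0.05, an absolute log2 fold change of at least 1, at least 50 CPM in the higher group and at least 2 times the level of all other barcodes in every library of that group. Where fewer than 4 qualified, the 4 smallest p were named too. Replicate numbers in the labels were not used as pairs in the main fits. With 2 homozygous libraries at E16.5 the deviations from the group mean mirror each other. The values there therefore cannot tell whether the numbers pair the libraries.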

Additional observations from a re-analysis of the deposited data

Results flagged for a closer look

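Within a stage, 3 of 89 groups of library values held a library far from the others by Dixon's test, where chance gives about 1 in 20. H2-Aa in gated cells was at 1266 CPM in P3 library A and at 2186 to 2371 CPM in B, C and D. Ppt1 was at 83.3 CPM in library A and at 175 to 191 CPM in the others. Ccdc86 was at 51.2 CPM in library C and at 84.9 to 86.1 CPM in the others.

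The stage change in gated cells differed from that in the promyelocyte gate (interaction in edgeR, log2 scale) for Snx22 by 3.48, Ppt1 by 1.77, Ckb by 1.60, Plbd1 by 1.49, Fam129a by 1.48, Gimap6 by 1.32, Cst3 by 1.30 and Id3 by 1.18. Against the early erythroid gate it differed for Id3 by 3.48, Snx22 by 3.45, Ly6a by 3.42, Cdk14 by 3.36, Ccl4 by 3.16, Slamf7 by 3.12, Flt3 by 3.07 and Ckb by 2.89. It also differed there for BC028528 by 2.87, Fam129a by 2.84, Plbd1 by 2.84, Wdfy4 by 2.83, Gnl3 by -1.12, Ccdc86 by -1.09 and Fkbp4 by -1.01.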

How the results depend on the processing

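Gene by gene, 637 of 704 stage results with 1 library left out kept direction and side of the threshold, 67 lost the call and 0 turned. The gates rest on single UMIs and the sums on 16 to 58 cells a library, so genes of low level were beyond reach. The subsets without class II-rich or neutrophil-rich cells (at least 5% of UMIs on the neutrophil list), and the thinning of Kit and Cd34 alone, were chosen after the values had been seen. Where no cause is given, the cause was not tested.

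The stage test called 1319 genes, 213 with Elane, Mpo and Prtn3 at 0 UMIs and 406 with Kit at 2 UMIs or more, where fewer cells and genes (1529 and 2985) entered, and 1023 to 1268 with 1 library left out. With the replicate number as a block (replicate block) it called 1292, and the homozygous comparison 6 in place of 2. That comparison called 7 with DESeq2, 0 with the granule genes at 0 UMIs (70 at an unadjusted p under 0.05), 96 without a filter on low counts, 0 without called doublets and 5 without neutrophil-rich cells. With 1 library left out it called 2 to 33, the highest without Jag1Ndr/Ndr replicate 1, and 15 without Jag1Ndr/+ replicate 1. A lone Jag1Ndr/Ndr library was assumed to vary like the other group.

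The interaction with the promyelocyte gate was called for 60 genes, 94 with the granule genes at 0 UMIs, 37 with Kit at 2 or more, 205 without a filter and 15 without class II-rich cells. It ranged from 38 (without library C or without library B) to 93 (without Jag1Ndr/Ndr replicate 2) with 1 library left out. Against the early erythroid gate it was 1782, and 548, 509 and 870 for the granule genes at 0, Kit at 2 or more and no class II-rich cells, and 1120 (without library B) to 2275 with 1 library left out.

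The log2 difference of shares between stages (0.86) was 1.19 with the granule genes at 0, 1.01 with a minimum of 2000 UMIs, 1.26 with Kit and Cd34 thinned, -0.25 with Kit at 2 or more, -0.0777 with all genes thinned, 0.62 without called doublets and 0.22 without class II-rich cells. With 1 library left out it was 0.70 to 1.00, and p stayed under 0.05 only without the shared library. For the homozygous libraries (0.08) it was -0.15 and -0.29 with the 2 kinds of thinning, -0.0146 without called doublets and -0.22 to 0.38 with 1 library left out.

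Without class II-rich cells the log2 fold change turned for H2-Ab1 (-0.55) and Aif1 (-0.0230) between stages, for Snx22 (-1.20), Ppt1 (-0.44), Plbd1 (-0.0787) and Cst3 (-0.56) against the promyelocyte gate, and for Snx22 (-1.36) against the early erythroid gate. With Kit at 2 or more it turned for Nusap1 (0.10) and Ccnb2 (0.45) between stages and for Ccnb2 (0.23) and Ube2c (0.12) against the promyelocyte gate. With the granule genes at 0 it turned for Fos (0.26).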
